A study of Macaca fuscata with 18 samples.

Results

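The 9 sham libraries of the series are the normal tissue of the experiment. They come from the anterior subventricular zone (SVZa) of 3 sham-operated adult Japanese macaques (Macaca fuscata), numbered MK501, MK504 and MK508, and make up 9 of the 18 libraries. From each monkey 3 adjacent fragments, A1, A2 and A3, were sequenced separately. They were cut from the striatal wall of the lateral ventricle in the right hemisphere, where the caudate head lies beside it, and the callosal side was not taken. The members were chosen by treatment label alone, so that each fragment number holds 1 library of each of the 3 monkeys. The sham monkeys had the operation without the clipping, and tissue was taken a week later. The other 9 libraries are fragments A1, A2 and A3 of 3 monkeys (MK503, MK506 and MK507) whose arteries were clipped for 18 min. The labels give no age for the 6 animals, and none is labelled as genetically modified. The MK number was read as the monkey and the A number as the fragment. Where on the ventricle wall A1, A2 and A3 lie is not given in the sources used here, so no dorsal or ventral end is assigned to them.

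The subventricular zone lies under the ependyma, the layer of multiciliated cells that lines the ventricle. Its astrocyte-like stem cells divide into progenitors and then neuroblasts, and in rodents the identity of the new neurons depends on where along the wall the stem cell sits. Below it lies the caudate nucleus, filled with inhibitory projection neurons, and within the ventricle floats the choroid plexus, the epithelium that secretes cerebrospinal fluid. A fragment dissected by hand can hold parts of all of these. The libraries are bulk RNA, so fewer cells of a type and less RNA per cell cannot be told apart.

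No gene passed between A1 and A3 in edgeR, and 3 did in DESeq2. With the monkey as a block, edgeR's quasi-likelihood test called 0 of 16877 genes at an adjusted p under 0.05 (0%, smallest adjusted p 0.9252). At an unadjusted p under 0.05, 243 genes were higher in A1 (1.44%) and 304 were lower (1.8%). DESeq2 called 1 gene higher and 2 lower, with 396 and 577 at an unadjusted p under 0.05, and limma-voom called 0, with 283 and 362. An exact permutation test over sign changes in 3 monkeys cannot go below p = 0.25, so single genes rest on the fit across all genes. The split of the unadjusted genes moved with the scaling and with single libraries. It was 195 higher and 417 lower with relative log expression (RLE) size factors, 193 and 419 with POLE2 and KLHDC1, very high in 2 libraries of MK504, removed, and 773 and 58 with library totals only. It was 696 and 881 without the A2 library of MK501, 96 and 88 without the A3 library of MK508, and 102 and 39 without the A2 and A3 libraries of MK504. Marker transcripts of several cell types lay in different fragments of the 3 monkeys. Choroid plexus transcripts were most abundant in A2 of MK501 but in A1 of MK504 and MK508, and myelin transcripts in A3 of MK508 but in A1 or A2 of the other monkeys. Smaller differences in 1 direction in all 3 monkeys were seen in the respiratory chain, lower in A1 for 65 of 81 subunits, and in stem cell genes, higher in A1 for 13 of 21. Counts of members without a call are descriptions. Throughout, a count of members in 1 direction in all 3 monkeys is to be read against 17.5% of all genes for higher and 17.8% for lower, and one at an unadjusted p under 0.05 against 1.44% and 1.8%.

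The libraries held 19091839 to 57461603 counts over all transcripts, and 11526479 to 34107957 with 1 transcript per symbol. Levels are CPM, counts scaled to library size after TMM normalization, always listed for MK501, MK504 and MK508 in that order. They are not compared between genes because transcript lengths were not used here. The library size of CPM is the second total, limited to the genes tested. Percentages of counts are of the first total, so they do not match the CPM. Differences are log2 values of A1 over A3 from the fit (n = 3 monkeys), followed by an approximate standard error (SE). They weight libraries by their counts, so they need not equal the mean of the 3 within-monkey differences. The SE was derived from the difference and its F value. It reflects the residual spread of the 9 libraries after the monkey block and the fragment term, moderated across genes. That spread is how far fragment differences disagree between monkeys, and not how far monkeys differ in level. MK504 stood apart from the other sham monkeys in all of its fragments. The nuclear RNA MALAT1 made up 1.09 to 1.21% of counts in A1, A2 and A3 of MK504, against 0.036 to 0.171% in the other 6 sham libraries. POLE2, a DNA polymerase subunit gene, took 5.55 and 5.16% in its A2 and A3 and 0.00033% in its A1, and KLHDC1 took 1.96 and 1.82% in the same A2 and A3. Their part in other results was not tested. The fits without these libraries, and with both genes removed before scaling, are given where they bear on a result. The ischemic monkey MK503 had the same traits, with MALAT1 at 1.27, 1.25 and 1.2% in A1, A2 and A3. Its A2 gave 5.59% of counts to POLE2 and 1.97% to KLHDC1, with POLE2 at 0.000329 and 0.000454% in its A1 and A3. What this did to the values in ischemia was not tested.

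Animals differed more than fragment numbers did. Of the variance of log2 CPM over the 9 libraries, 69.9% lay between monkeys, 8.56% between fragment numbers and 21.5% in the remainder. The remainder includes fragment differences that the monkeys did not share. The shares without MK504 were not computed. The first principal component (63.6%) set MK504, at 120.1 to 125.6, apart from the other monkeys, at −104.5 to −35.66. After each monkey's mean was removed, the first component (50.8%) held A1 at −38.78, 42.02 and 53.79, A2 at 73.31, −34.52 and 0.99, and A3 at −34.53, −7.5 and −54.78. On this axis A1 was above A3 in MK504 and MK508 and slightly below it in MK501, whose A2 stood alone. The median absolute log2 difference between A1 and A3 was 0.175, 0.247 and 0.376 in the 3 monkeys, against 0.413 to 1.235 between 2 monkeys in the same fragment. A2 of MK501 lay within the latter range, at 0.533 from its A1 and 0.522 from its A3.

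**Figure D1:**
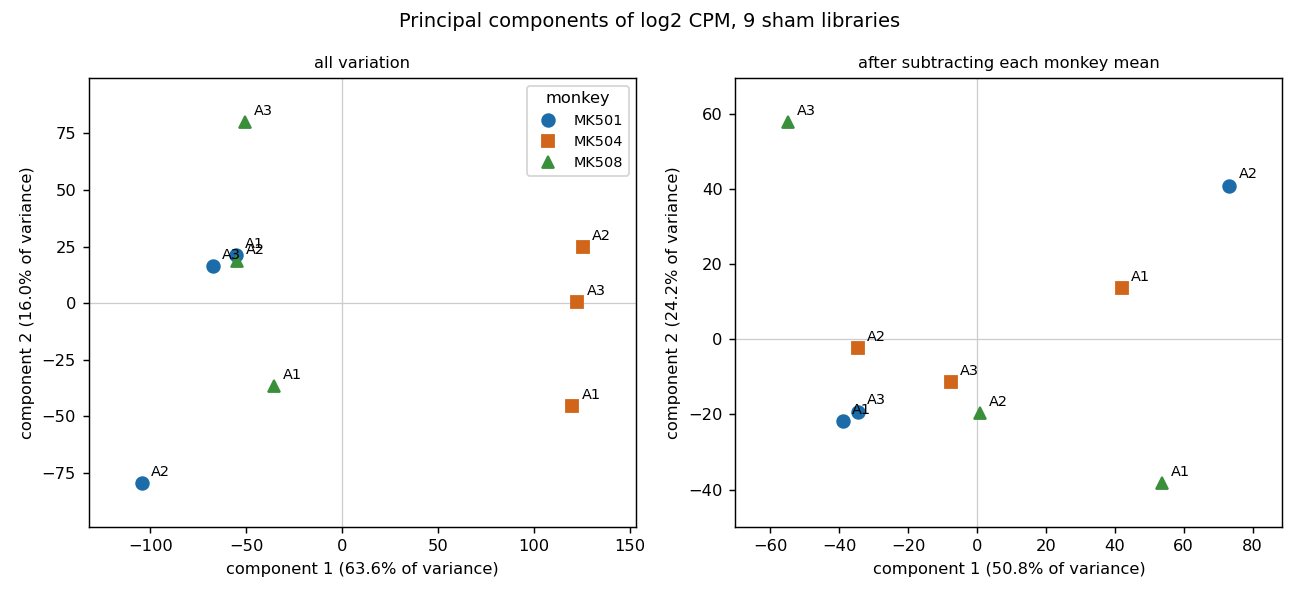
Principal components of log2 CPM in the 9 sham libraries before (left) and after (right) each monkey's mean was subtracted; each point is a library, coloured by monkey and labelled by fragment, and the axes are component scores with their share of variance. MK504 sits apart at 120.1 to 125.6 on the left axis, and on the right A2 of MK501 (73.31) and A3 of MK508 (−54.78) lie at the ends.

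The fragment differences of the 3 monkeys were weakly related. Correlations were taken over genes, which are no independent replicates. The A1 minus A3 difference of MK501 had r = 0.02 with that of MK504 and −0.033 with that of MK508, and MK504 had r = 0.227 with MK508. At least 2-fold differences were found for 342 genes higher and 262 lower in A1 of MK501, 802 and 651 in MK504, and 2053 and 901 in MK508. In all 3 monkeys, 22 genes were at least 2-fold higher in A1 and 7 at least 2-fold lower. In 1 direction of any size in all 3, 2946 genes were higher in A1 (17.5%) and 3012 lower (17.8%). Of these, 204 higher (1.21%) and 162 lower (0.96%) also had an unadjusted p under 0.05 and a log2 difference over 0.5.

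Choroid plexus epithelium was the marker list with the widest range among fragments. Its 12 genes summed to 370.1, 6762 and 1352 CPM in A1, 77040, 106.8 and 104.8 CPM in A2, and 2624, 140.8 and 84.46 CPM in A3. In MK504 and MK508 nearly all of this RNA was in A1, and in MK501 it was in A2, with A3 above A1. TTR, the thyroxine carrier secreted into cerebrospinal fluid, had 187, 3984 and 1049.6 CPM in A1, 73195, 1.21 and 6.77 CPM in A2 and 2308, 3.34 and 2.45 CPM in A3. The single A2 library of MK501 gave 4.25% of its counts over all transcripts to TTR. All 12 genes were higher in A1 by the fit (median log2 difference 3.94), but only 1 was higher in all 3 monkeys, and the list medians of the monkeys were −1.57, 4.21 and 4.07. The fit gave TTR a difference of 9.25 ± 3.32 (edgeR, unadjusted p = 0.0295) although its A1 was below A3 in MK501, by 3.62 on the log2 scale. PRLR, the prolactin receptor, had 8.46, 1623 and 54.2 CPM in A1, 1023, 7.19 and 0.729 CPM in A2 and 67.5, 4.02 and 1.45 CPM in A3, and again A1 was above A3 in MK504 and MK508 and below it in MK501. With limma-voom the list median was 1.06. In all, 4 of the 12 had an unadjusted p under 0.05 (1.44% over all genes). This count was 11 without MK501, 8 in DESeq2, and 0 in limma-voom, without the A2 library of MK501, without MK504 or without MK508.

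The ependyma followed MK508. The 22 genes of motile cilia summed to 986.2, 1931 and 3744 CPM in A1, 3212, 619.6 and 1702 CPM in A2, and 1053, 1496 and 295.6 CPM in A3. DNAH5, an outer arm dynein of motile cilia, had 77.5, 208 and 341 CPM in A1, 191, 69.5 and 84.9 CPM in A2 and 80.0, 158 and 2.36 CPM in A3. A3 of MK508 was the lowest library and A1 of MK508 the highest, so that the values of A1 and A3 overlapped across monkeys. HYDIN, a protein of the central pair of the axoneme, had 50.1, 315 and 318 CPM in A1, 117, 80.9 and 110.0 CPM in A2 and 50.8, 220.0 and 3.76 CPM in A3, with the same library at the bottom. A3 of MK508 thus held few transcripts of the layer that lines the ventricle. All 22 genes were higher in A1 by the fit, with a median of 1.53, 2 in all 3 monkeys and 0 at an unadjusted p under 0.05. The monkeys' medians were −0.08, 0.42 and 4.89. Without MK508 the median was 0.26 and without MK504 it was 2.58.

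Myelin was distributed the other way in MK508. The 21 oligodendrocyte genes summed to 5428, 5026 and 7351 CPM in A1, 5612, 2099 and 16210 CPM in A2, and 3088, 2863 and 50840 CPM in A3. MBP, a main protein of compact myelin, had 2193, 1235 and 3617 CPM in A1, 1704, 500.2 and 8574 CPM in A2 and 1225, 729 and 27881 CPM in A3. In MK508 it was lowest in A1 and highest in A3, while in MK501 and MK504 A1 was the highest of the 3 fragments. OLIG1, a transcription factor of the lineage, had 38.2, 17.9 and 43.3 CPM in A1, 47.4, 13.8 and 65.7 CPM in A2 and 37.9, 21.3 and 258 CPM in A3, with only A3 of MK508 out of the range of the others. By the fit, 20 of 21 genes were lower in A1 (median −0.49), but 0 were lower in all 3 monkeys, and the monkeys' medians were 0.83, 0.46 and −2.70. Without MK508 the direction of the list turned, with 21 of 21 higher and a median of 0.64, and without the A3 library of MK508 alone 21 of 21 were higher too. The 11 precursor genes had a median of −0.35, with monkeys at 0.07, 0.07 and −1.22.

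**Figure D2:**
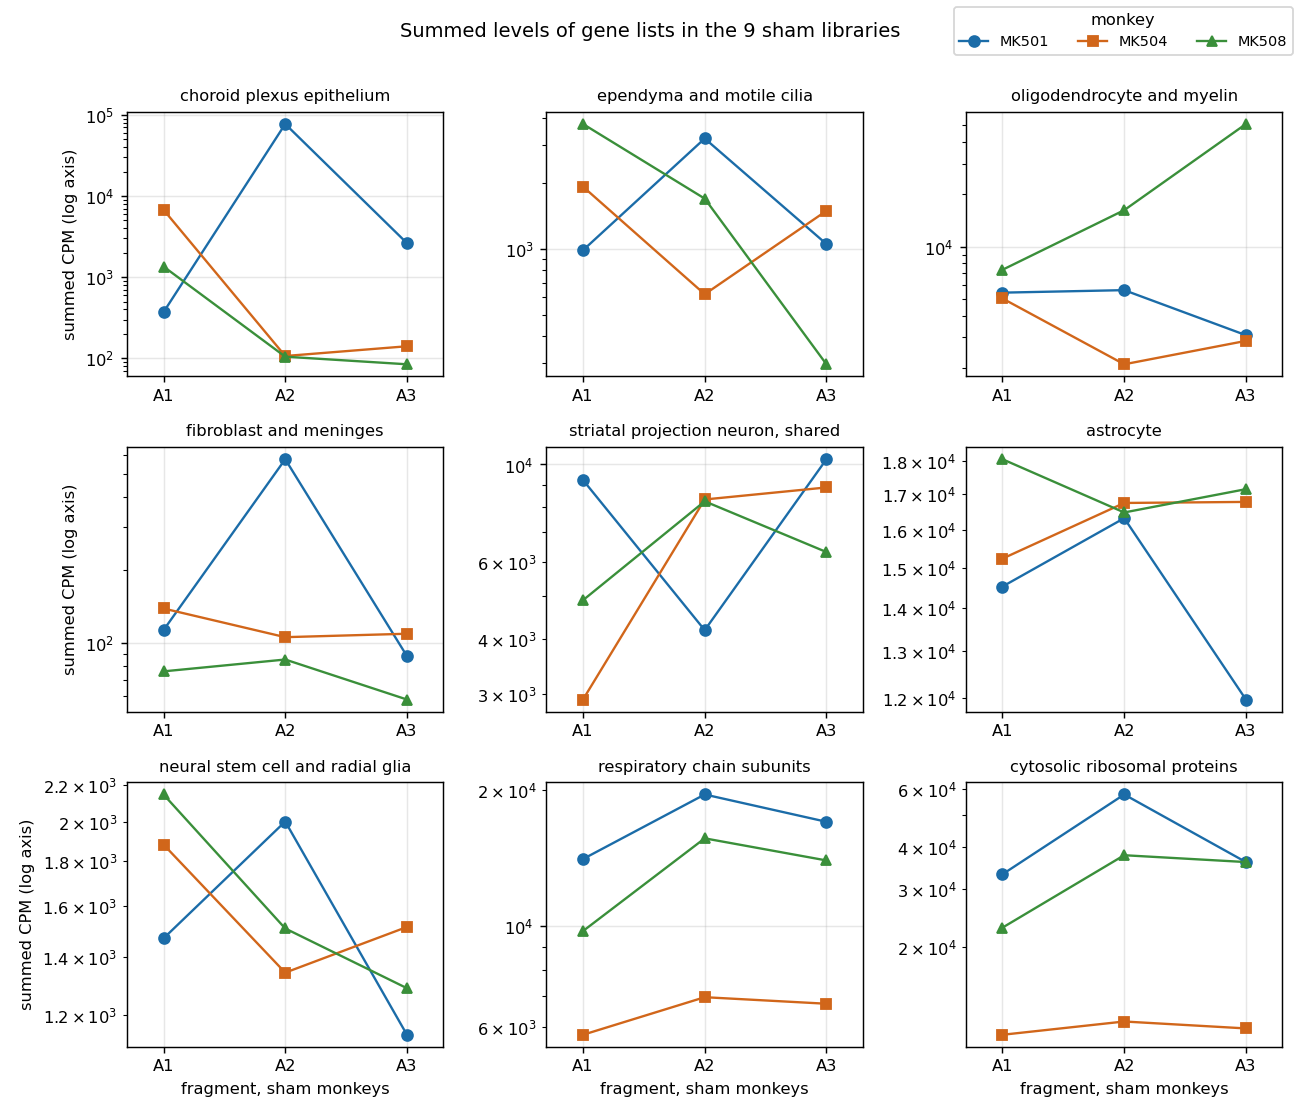
Summed TMM-normalized CPM (log axis) of 9 gene lists in fragments A1, A2 and A3, 1 line per sham monkey. Choroid plexus peaks in A2 of MK501 (77040) and in A1 of MK504 (6762), myelin in A3 of MK508 (50840), and the respiratory chain is lowest in A1 of every monkey.

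Transcripts of vessels and connective tissue were highest in 1 library. In A2 of MK501 the 22 endothelial genes summed to 812.4 CPM, against 306 to 435.7 in the other 8 libraries. The 10 fibroblast and meningeal genes summed to 112.7, 138.5 and 76.1 CPM in A1, 573.9, 105.4 and 85.19 CPM in A2, and 88.01, 108.9 and 58.2 CPM in A3. DCN, the matrix proteoglycan decorin, had 33.2, 38.7 and 28.3 CPM in A1, 190.5, 29.1 and 29.3 CPM in A2 and 27.0, 31.3 and 21.9 CPM in A3, and VWF, the clotting factor stored in endothelium, had 17.4, 32.5 and 20.5 CPM in A1, 112, 31.6 and 13.3 CPM in A2 and 18.0, 35.5 and 14.9 CPM in A3. Both peaked in the library that also led the choroid plexus, a tissue with vessels and stroma of its own, and the part of that in these values was not tested. Between A1 and A3, 9 of 10 fibroblast genes were higher in A1 (median 0.57), 4 in all 3 monkeys and 0 at an unadjusted p under 0.05. The endothelial, pericyte and microglial lists had medians of 0.06, −0.03 and 0.03, and the 4 blood genes 0.56. The blood genes summed to 90.22, 164 and 336 CPM in A1, 525.2, 87.71 and 195.4 CPM in A2, and 81.5, 75.62 and 204.9 CPM in A3, highest in A2 of MK501 and in A1 of the other monkeys.

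Summed astrocyte transcripts lay between 11970 and 18050 CPM in all libraries. The 21 genes summed to 14520, 15230 and 18050 CPM in A1, 16320, 16750 and 16480 CPM in A2, and 11970, 16780 and 17150 CPM in A3. By the fit 13 were higher in A1 and 8 lower (median 0.12), with monkeys at 0.11, −0.02 and 0.26. In all 3 monkeys 8 were higher (17.5% over all genes) and 2 lower (17.8% over all genes). Of the 21, GJA1 alone had each A1 above each A3 (1.73% over all genes). GFAP, the astrocyte filament, had 2225, 2209 and 4324 CPM in A1, 3979, 768 and 3572 CPM in A2 and 952, 1484 and 3968 CPM in A3 and varied more than the list, lowest in A2 of MK504. Its difference of 0.56 ± 0.57 did not pass (edgeR, unadjusted p = 0.361).

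Striatal projection neurons set A1 of MK504 and A2 of MK501 apart. The 15 genes shared by both projection pathways summed to 9216, 2907 and 4900 CPM in A1, 4186, 8320 and 8240 CPM in A2, and 10280, 8863 and 6311 CPM in A3. PPP1R1B, which encodes the dopamine-regulated phosphatase inhibitor DARPP-32, had 2293, 232 and 1161 CPM in A1, 1317, 636 and 2159 CPM in A2 and 2709.5, 640.0 and 1804 CPM in A3. A1 was below A3 in each monkey, by little in MK501, and the fragments overlapped across monkeys. Its difference was −0.72 ± 0.43 (edgeR, unadjusted p = 0.143). Of the 15 genes, 13 were lower in A1 by the fit and 8 in all 3 monkeys, with a median of −0.49 and monkeys at −0.01, −1.47 and −0.18. Without MK504 the median was −0.09.

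The output pathways were described separately. PENK, the enkephalin precursor of the indirect pathway, had 2157, 292 and 1071 CPM in A1, 1201, 767 and 1965 CPM in A2 and 2582, 761 and 1275 CPM in A3. DRD2, the dopamine receptor of those neurons, had 180.3, 23.9 and 88.1 CPM in A1, 77.3, 80.0 and 199.7 CPM in A2 and 210.3, 81.7 and 168 CPM in A3, and in both genes A1 lay below A3 in all 3 monkeys. The 6 indirect pathway genes had a median of −0.68, with 5 lower by the fit and 4 in all 3 monkeys. DRD1, the receptor of the direct pathway, had 155, 83.9 and 103 CPM in A1, 44.5, 276 and 144 CPM in A2 and 145, 273 and 95.6 CPM in A3, lower in A1 only in MK504. The 8 direct pathway genes had a median of −0.09, with 5 lower by the fit and 0 in all 3 monkeys, and monkeys at 0.01, −1.24 and 0.43. Of 18 interneuron genes, 11 were lower by the fit and 6 in all 3 monkeys (median −0.14). SLC5A7, the choline transporter of cholinergic interneurons, was, of the members of all lists, the 1 without overlap whose A1 was below A3, at 23.5, 24.1 and 17.2 CPM in A1, 6.95, 59.3 and 32.3 CPM in A2 and 29.4, 55.5 and 26.0 CPM in A3 (over all genes, 98 of 16877 or 0.581% lay so). The 21 pan-neuronal genes had a median of −0.01.

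Glutamatergic neurons of cortex are not part of the caudate, and their markers were low. The 9 genes summed to 20.92, 141.3 and 34.83 CPM in A1, 56.44, 57.89 and 18.06 CPM in A2, and 18.54, 59.93 and 27.99 CPM in A3. SLC17A7, the vesicular glutamate transporter of cortical neurons, had 4.56, 51.1 and 9.42 CPM in A1, 3.88, 2.57 and 1.52 CPM in A2 and 3.12, 0.371 and 7.08 CPM in A3, highest in A1 of MK504, the library that was lowest in striatal genes. All 9 were higher in A1 by the fit (median 1.33), 2 of them in all 3 monkeys, and without MK504 the median was 0.26.

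**Figure D3:**
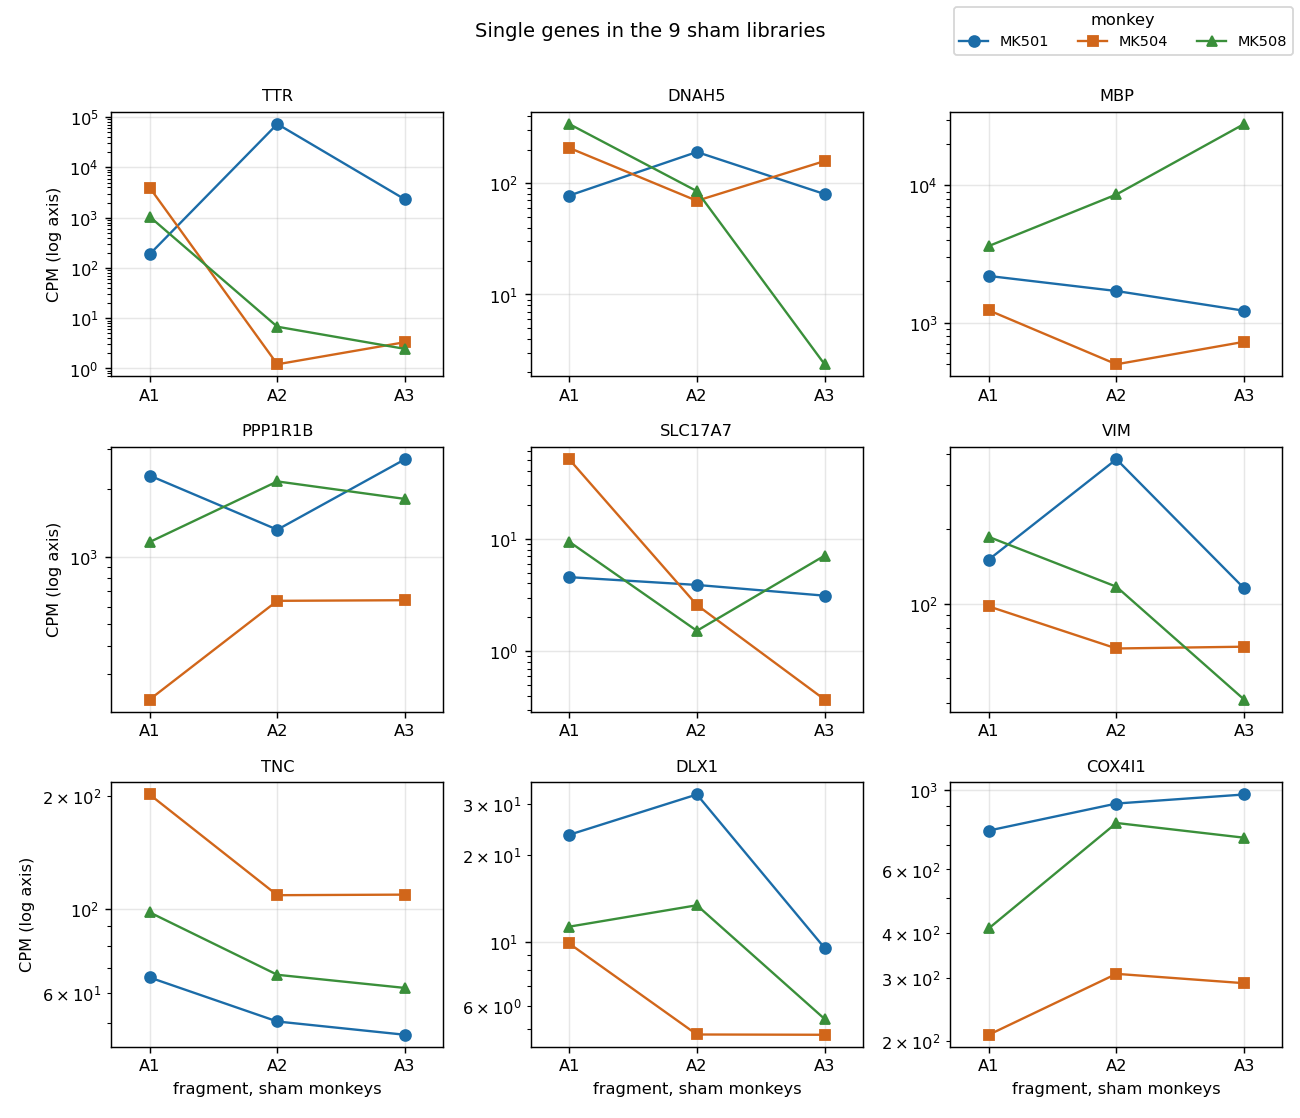
TMM-normalized CPM (log axis) of single genes in fragments A1, A2 and A3, 1 line per sham monkey. TTR ranges over 1.21 to 73195 CPM with its peak in a different fragment of MK501 than of the other monkeys, while COX4I1 is lowest in A1 of each monkey.

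Neural stem cell and radial glia genes were higher in A1 in most members. The 21 genes summed to 1469, 1882 and 2148 CPM in A1, 2000, 1342 and 1508 CPM in A2, and 1139, 1514 and 1288 CPM in A3. By the fit 18 were higher in A1 and 3 lower (median 0.42), 13 were higher in all 3 monkeys (17.5% over all genes), and the monkeys' medians were 0.31, 0.17 and 0.71. SOX1, a transcription factor of neural progenitors, had 23.2, 19.2 and 24.2 CPM in A1, 24.6, 13.1 and 16.8 CPM in A2 and 19.3, 12.4 and 11.4 CPM in A3, a difference of 0.66 ± 0.21 (edgeR, unadjusted p = 0.0189). Its A1 exceeded A3 in each monkey, and the lowest A1 value lay just below the highest A3 value. NOTCH2, a receptor that holds stem cells undifferentiated, had 48.2, 251 and 96.9 CPM in A1, 58.5, 133 and 52.7 CPM in A2 and 36.0, 156 and 48.7 CPM in A3, and its difference of 0.72 ± 0.26 also ran in 1 direction in the 3 monkeys (unadjusted p = 0.0304). TNC, tenascin C of the niche matrix, had 65.9, 202 and 98.1 CPM in A1, 50.3, 109 and 67.0 CPM in A2 and 46.4, 109 and 61.8 CPM in A3, with a difference of 0.69 ± 0.15 (unadjusted p = 0.00263). VIM, the filament of radial glia and ependyma, had 150.2, 97.5 and 185 CPM in A1, 380.4, 66.0 and 117 CPM in A2 and 115, 67.1 and 41.1 CPM in A3 (1.06 ± 0.50, unadjusted p = 0.0738). The fragments of these genes overlapped across monkeys. These 3 genes (SOX1, NOTCH2 and TNC) were the list's members at an unadjusted p under 0.05, where 1.44% of all genes lay. The count was 7 without the A2 library of MK501, 8 with library totals, 1 without MK508 and 0 without MK504 or without its A2 and A3 libraries. The medians of the ependymal list above, which shares the ventricular surface, ran in the same direction in MK504 and MK508, and its part in this was not tested.

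Dividing cells and neuroblasts were less uniform. TOP2A, the topoisomerase of replicating chromosomes, had 7.86, 9.93 and 1.92 CPM in A1, 4.76, 5.90 and 0.554 CPM in A2 and 3.04, 5.13 and 0.726 CPM in A3, so that A1 was the highest fragment of each monkey while MK508 was low in all 3. Its difference was 1.25 ± 0.31 (edgeR, unadjusted p = 0.00606). The 21 proliferation genes had a median of 0.36, with 18 higher by the fit, 9 in all 3 monkeys (17.5% over all genes) and 3 at an unadjusted p under 0.05 (1.44% over all genes). The last count was 7 without the A2 library of MK501 and 1 without the A2 and A3 libraries of MK504. Summed, the list had 207, 209.9 and 175.1 CPM in A1, 202, 189.6 and 181.9 CPM in A2, and 164.4, 185.5 and 216.5 CPM in A3. By the sum A1 was thus above A3 in MK501 and MK504 and below it in MK508. The members MCM4 and PCNA were close to level, at −0.05 and 0.05. CCNB2, a mitotic cyclin, had 1.52, 0.530 and 0.534 CPM in A1, 1.97, 0.757 and 0.0584 CPM in A2 and 0.237, 0.247 and 0.0907 CPM in A3, with each A1 above each A3. Levels this low rest on few reads, and its A2 was above its A1 in MK501 and MK504. Of 12 neuroblast genes 8 were higher and 4 lower (median 0.19), and 3 homeobox or zinc finger factors led. DLX1, which directs inhibitory neuron fate, had 23.4, 9.85 and 11.3 CPM in A1, 32.3, 4.77 and 13.4 CPM in A2 and 9.51, 4.76 and 5.40 CPM in A3, a difference of 1.13 ± 0.36 without overlap between A1 and A3 (unadjusted p = 0.0177). SP8 differed by 1.62 ± 0.50 (unadjusted p = 0.0157) and DLX2 by 1.33 ± 0.51 (unadjusted p = 0.0373). DCX, the microtubule protein of migrating neuroblasts, differed by only 0.11 ± 0.19, from 64.3, 96.7 and 36.1 CPM in A1, 49.9, 98.6 and 44.7 CPM in A2 and 42.6, 109 and 39.2 CPM in A3. STMN1, a tubulin regulator, had 239, 147 and 238 CPM in A1, 209.9, 82.6 and 361 CPM in A2 and 169, 74.8 and 899 CPM in A3, with A1 above A3 in MK501 and MK504 and far below it in MK508. Its difference was −0.15 ± 0.56, 0.72 without MK508 and −0.79 without MK504.

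Regional transcription factors mark the walls of the rodent ventricle, with pallial factors dorsally and others ventrally. The 8 dorsal pallial factors had a median of 0.54 (7 higher by the fit, 4 in all 3 monkeys), the 13 lateral subpallial factors 0.15 (9 and 4), and the 14 ventral and medial factors 0.91 (12 and 5), where 17.5% of all genes were higher in all 3 monkeys. The monkeys had medians of 0.28, 0.40 and 0.19 for the dorsal and 0.14, 1.00 and 0.41 for the ventral list. The dorsal median was 0.17 without MK508 and 0.32 without MK504, and the ventral median 0.14 without MK504. The medians of both lists were above 0, so they do not order A1 and A3 along the rodent axis. PAX6, a dorsal factor, had 73.5, 73.4 and 73.3 CPM in A1, 60.0, 66.9 and 74.5 CPM in A2 and 52.5, 66.3 and 67.9 CPM in A3, close to level, and its difference of 0.25 ± 0.14 placed each A1 above each A3. GLI1, a target of hedgehog signals that mark the ventral wall in mice, had 3.56, 2.65 and 5.53 CPM in A1, 3.77, 2.27 and 2.04 CPM in A2 and 2.29, 1.54 and 1.54 CPM in A3, again with no overlap (1.13 ± 0.38, edgeR, unadjusted p = 0.0227). GLI3, the hedgehog repressor, differed by 0.62 ± 0.21 (unadjusted p = 0.021). NKX6-2, a ventral factor that oligodendrocytes also express, had 15.7, 3.71 and 19.4 CPM in A1, 17.1, 5.30 and 47.3 CPM in A2 and 15.1, 5.87 and 153 CPM in A3 and was highest in the myelin-rich A3 of MK508. In the ventral list 5 genes (ZIC5, ZIC4, ZIC2, PTCH1 and GLI1) lay without overlap, A1 above A3, as did 292 of all 16877 genes (1.73%). The 8 striatal gradient genes of rodents split 4 and 4 (median 0.11).

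Niche signals of the hedgehog, WNT and BMP families were higher in A1 for 16 of 27 genes by the fit and for 11 in all 3 monkeys (17.5% over all genes), with a median of 0.21. At an unadjusted p under 0.05, 4 were higher, 6 without the A2 library of MK501, and 0 without MK504 or without MK508. SFRP2, a secreted WNT antagonist, had 1.26, 1.44 and 6.99 CPM in A1, 4.98, 1.06 and 2.28 CPM in A2 and 1.07, 0.371 and 0.680 CPM in A3, with a difference of 2.11 ± 0.76 (edgeR, unadjusted p = 0.0293) and no overlap between A1 and A3. WNT3 also lay without overlap, at 1.56, 2.12 and 2.75 CPM in A1, 1.80, 1.36 and 1.20 CPM in A2 and 0.907, 0.927 and 1.50 CPM in A3 (0.95 ± 0.39, unadjusted p = 0.0488). SFRP1, a related antagonist, had 36.7, 127 and 40.7 CPM in A1, 134, 27.8 and 62.3 CPM in A2 and 29.4, 26.5 and 279 CPM in A3, and its order differed in each monkey. The 22 ephrin and Eph receptor genes had a median of −0.03 and the 22 neuropeptide genes −0.33. Of the neuropeptide genes 15 were lower by the fit and 8 in all 3 monkeys (17.8% over all genes).

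The respiratory chain was lower in A1 of each monkey. Its 81 nuclear-encoded subunit genes, which build the complexes that make ATP in mitochondria, summed to 14070, 5763 and 9760 CPM in A1, 19530, 6975 and 15630 CPM in A2, and 17000, 6747 and 13970 CPM in A3. A1 was the lowest and A2 the highest fragment of each monkey, but the ranges of MK501 and MK508 overlapped and MK504 lay below both. By the fit 76 were lower in A1 and 5 higher (median −0.33, against 0.01 over all genes). In all 3 monkeys 65 were lower, where 17.8% of all genes were, and 22 had an unadjusted p under 0.05, where 1.8% of all genes had. The 3 monkeys had medians of −0.30, −0.21 and −0.52, and 0 of 81 lay without overlap (0.581% over all genes with A1 below A3). The number at an unadjusted p under 0.05 was 43 in DESeq2, 24 in limma-voom and 34 with RLE size factors. It was 40 without the A2 library of MK501, 4 without the A3 library of MK508, 1 without MK504 or without its A2 and A3 libraries, 2 without MK508, and 1 when libraries were scaled by their totals only. Under that scaling the median of all genes moved to 0.17, and 67 of the 81 were still lower in A1, with a list median of −0.15.

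The medians of all complexes were below 0. All 36 complex I subunits were lower by the fit (median −0.37), 31 in all 3 monkeys and 14 at an unadjusted p under 0.05. The 15 complex IV subunits had a median of −0.40, the 18 ATP synthase subunits −0.27, the 8 complex III subunits −0.26 and the 4 complex II subunits −0.22. NDUFB10, a complex I subunit, had 114, 29.9 and 79.1 CPM in A1, 170.0, 47.5 and 135 CPM in A2 and 156, 46.5 and 123 CPM in A3, the lowest fragment of each monkey being A1. Its difference was −0.57 ± 0.13 (edgeR, unadjusted p = 0.00337, adjusted p 0.9252, and 1 of the 3 genes called by DESeq2, at −0.62). COX4I1, of complex IV, had 769.9, 208 and 411 CPM in A1, 916, 307 and 808 CPM in A2 and 970.4, 289 and 736 CPM in A3 and a difference of −0.54 ± 0.20 (unadjusted p = 0.0309). NDUFA3 differed by −0.62 ± 0.16 (unadjusted p = 0.0071) and ATP5D, of the ATP synthase, by −0.56 ± 0.15 (unadjusted p = 0.00853).

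Cytosolic ribosomal proteins followed a like course. The 80 genes summed to 33140, 10900 and 22900 CPM in A1, 57610, 11950 and 37820 CPM in A2, and 36060, 11390 and 36070 CPM in A3. A1 was again the lowest fragment of each monkey, by little in MK504. Of the 80 genes 79 were lower by the fit (median −0.30), 53 in all 3 monkeys (17.8% over all genes) and 5 at an unadjusted p under 0.05 (1.8% over all genes), with monkeys at −0.13, −0.09 and −0.65. The 5 became 16 in DESeq2 and 12 without the A2 library of MK501, and 0 without MK504, without MK508, without the A3 library of MK508 alone, or with library totals. The 48 large-subunit genes had a median of −0.28 and the 32 small-subunit genes −0.32. RPS2 had 387, 89.4 and 273 CPM in A1, 417, 109.8 and 482 CPM in A2 and 524, 111 and 490.3 CPM in A3 and a difference of −0.52 ± 0.19. Many genes of this family have processed copies that can share reads, so single members are uncertain. Scaled by library totals, 63 of 80 were lower. The 20 immediate early genes had a median of −0.05 and the 11 heat shock genes 0.09.

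Single genes were named by the smallest p, 15 in each direction, among those with 1 direction in all 3 monkeys. Among those higher in A1, 4 had each A1 value above each A3 value (1.73% over all genes). In 8 the A2 value lay between them in all 3 monkeys (1.54% over all genes). The choice by small p and 1 direction favours both counts. LIX1 had 3.08, 6.97 and 4.80 CPM in A1, 2.84, 3.48 and 2.48 CPM in A2 and 1.10, 2.35 and 1.45 CPM in A3, with A1 above A2 and A2 above A3 in every monkey, and a difference of 1.60 ± 0.30 (edgeR, unadjusted p = 0.00146, adjusted p 0.9252). DESeq2 called it at 1.55. ZCCHC12 had 49.7, 84.5 and 61.8 CPM in A1, 39.9, 38.4 and 35.6 CPM in A2 and 37.9, 20.9 and 13.5 CPM in A3, with little difference in MK501 and more in the others (1.51 ± 0.37, unadjusted p = 0.00529). MPPED1 (1.63 ± 0.43) and CES1P1, a pseudogene that may share reads with its parent carboxylesterase (0.76 ± 0.19), were the others without overlap.

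Secreted signals and receptors were among the same 15. BDNF, the neurotrophin, had 2.21, 8.11 and 6.67 CPM in A1, 1.97, 2.80 and 3.30 CPM in A2 and 1.26, 2.16 and 2.31 CPM in A3, a difference of 1.45 ± 0.34 (edgeR, unadjusted p = 0.00421), and its A1 in MK501 lay just below the A3 of MK508. SLIT1, a repellent of growing axons and of neuroblasts, had 29.5, 137 and 45.9 CPM in A1, 17.9, 86.0 and 19.1 CPM in A2 and 21.9, 36.9 and 15.7 CPM in A3, a difference of 1.26 ± 0.33 (unadjusted p = 0.00729) that was small in MK501. CBLN4, a secreted organizer of synapses, had 1.95, 6.52 and 5.37 CPM in A1, 0.766, 3.03 and 3.30 CPM in A2 and 0.907, 1.73 and 2.13 CPM in A3 (1.44 ± 0.32, unadjusted p = 0.00345). The values of A1 and A3 overlapped across monkeys in all of these. The GABA receptor subunit gene GABRQ differed by 1.76 ± 0.42 and the insulin receptor substrate gene IRS4 by 2.50 ± 0.61. MYBL2, a transcription factor of the cell cycle (1.52 ± 0.38), DIRAS3 (0.89 ± 0.22), the potassium channel gene KCNT2 (0.67 ± 0.17) and the formin gene DAAM1 (0.91 ± 0.24) completed the group with TNC and TOP2A.

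The 15 symbols lower in A1 stand for 11 distinct sets of counts. Of them 0 lay without overlap (0.581% over all genes with A1 below A3). A2 lay between A1 and A3 in all 3 monkeys for 0 of them (1.54% over all genes). SOHLH1, a transcription factor of germ cells, had 3.12, 0.909 and 8.38 CPM in A1, 3.01, 1.74 and 20.0 CPM in A2 and 7.61, 2.66 and 31.2 CPM in A3, with A1 below A3 in each monkey and A2 of MK501 close to its A1, and a difference of −1.56 ± 0.30 (edgeR, unadjusted p = 0.00154, and −1.61 in DESeq2, which called it). NEU4, a sialidase of oligodendrocyte precursors, had 3.65, 1.44 and 10.97 CPM in A1, 5.69, 1.82 and 19.8 CPM in A2 and 5.48, 3.21 and 44.9 CPM in A3 and a difference of −1.31 ± 0.33 (unadjusted p = 0.00607). Besides NDUFB10, the group held C17orf89, a complex I assembly factor (−0.77 ± 0.17), C19orf70, of the mitochondrial inner membrane (−0.50 ± 0.12), and MRPL28, of the mitochondrial ribosome (−0.53 ± 0.13). The others were FKBP2 (−0.59 ± 0.14), the calcium pump gene ATP2A3 (−0.94 ± 0.24), EPYC (−2.72 ± 0.68), and 2 sets of symbols with identical counts. These are BOLA2 with BOLA2B (−0.72 ± 0.17) and FAM25A with FAM25BP, FAM25C and FAM25G (−3.76 ± 0.93), and reads among their copies cannot be told apart.

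**Figure D4:**
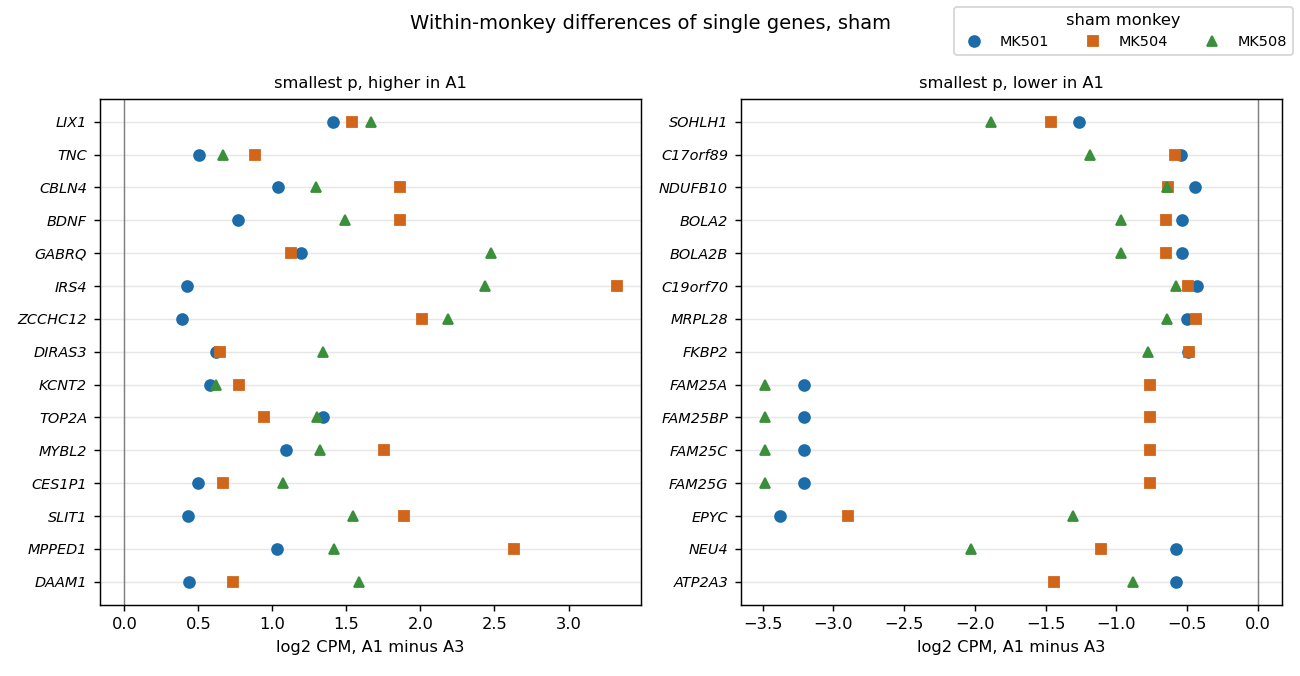
Within-monkey log2 CPM differences, A1 minus A3, of the 15 genes with the smallest p higher in A1 (left) and the 15 symbols lower in A1 (right), 1 symbol per sham monkey, the vertical line at 0 marking no difference. The genes were selected to lie on 1 side of 0 in all 3 monkeys, and the points of a gene can spread widely, as for IRS4 (0.42, 3.33 and 2.43), and 4 FAM25 symbols repeat the same counts.

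The middle fragment was not a midpoint. A2 lay between A1 and A3 in 28.8% of the values over genes and monkeys, and in all 3 monkeys for 260 genes (1.54%). Among the 547 genes at an unadjusted p under 0.05 between A1 and A3 it did so for 61. In MK501 A2 differed most, with median absolute log2 differences of 0.533 from A1 and 0.522 from A3 against 0.175 between A1 and A3. In MK504 A2 was nearest to A3 (0.168, against 0.319 from A1), and in MK508 it was nearer to A3 than to A1 (0.282 and 0.338). A1 against A2 gave 0 calls in edgeR (629 at an unadjusted p under 0.05), 25 in DESeq2 (815) and 0 in limma-voom (698). A2 against A3 gave 0 calls by each tool, with 112, 232 and 136 genes at an unadjusted p under 0.05. A test for any difference among the 3 fragments gave 0 in edgeR (375), 12 in DESeq2 (669) and 0 in limma-voom (447).

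The same comparison in the 3 ischemic monkeys shares no library with the sham one. There edgeR called 1164 genes higher in A1 (6.79%) and 847 lower (4.94%) of 17144, a count that was 0 without MK503, 0 without MK506 and 627 without MK507. Across genes there, the within-monkey differences had r = 0.212 for MK503 with MK506, 0.123 for MK503 with MK507 and 0.749 for MK506 with MK507. Of 544 sham genes at an unadjusted p under 0.05 that were also tested there, 395 (72.6%) had the same sign, against 60% of all genes. Among them 21 (3.86%) were called in that direction. A test of the difference of the A1 over A3 effects, sham minus ischemia, gave 0 calls of 17322 genes in edgeR (0%, smallest adjusted p 0.1153, 2786 at an unadjusted p under 0.05), 1009 in DESeq2 (3395) and 0 in limma-voom (3075). Of the 15 genes with the smallest p higher in A1 in sham, 8 had the same sign in ischemia and 1 was called there. Of the 15 symbols lower in A1, 14 had the same sign and 2 were called, counted in either direction. The FAM25 symbols share 1 set of counts and the BOLA2 symbols another, so the 14 are not independent. The 2 are not a count of calls in the sham direction. The 1 called among those higher was BDNF, at 1.45 in sham and 1.62 in ischemia (edgeR, adjusted p 0.0453 in ischemia).

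The list medians were set beside those of the ischemic monkeys. Counts of members called there are to be read against 6.79% of all genes called higher in A1 and 4.94% called lower. The calls over all genes fell to 0 without MK503, without MK506 or with the A1 and A3 libraries alone. The oligodendrocyte list had a median of −0.49 in sham and 3.08 in ischemia, where 21 of 21 genes were called higher in A1. MBP, at −0.35 in sham, was 3.39 in ischemia, with 10932, 25415 and 8568 CPM in A1 and 452, 2306 and 2088 CPM in A3 of MK503, MK506 and MK507. The shared projection neuron genes had a median of −0.49 in sham and −2.01 in ischemia, with 10 of 15 called lower in ischemia. Choroid plexus genes had 3.94 in sham and 1.34 in ischemia, and ependymal genes 1.53 in sham and 0.87 in ischemia, and in both treatments 1 monkey ran against the others in each list. Stem cell genes had 0.42 in sham and 0.41 in ischemia, where the monkeys were at −0.33, 1.01 and 0.57, so that MK503 ran the other way, and respiratory chain genes −0.33 in sham and −0.46 in ischemia, with 0 of 81 called in ischemia. Other lists did not keep their sham median. Cytosolic ribosomal protein genes had −0.30 in sham and −0.03 in ischemia, proliferation genes 0.36 and −0.05, and ventral and medial factors 0.91 and −0.31. The differences between treatments of list medians were not tested.

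**Figure D5:**
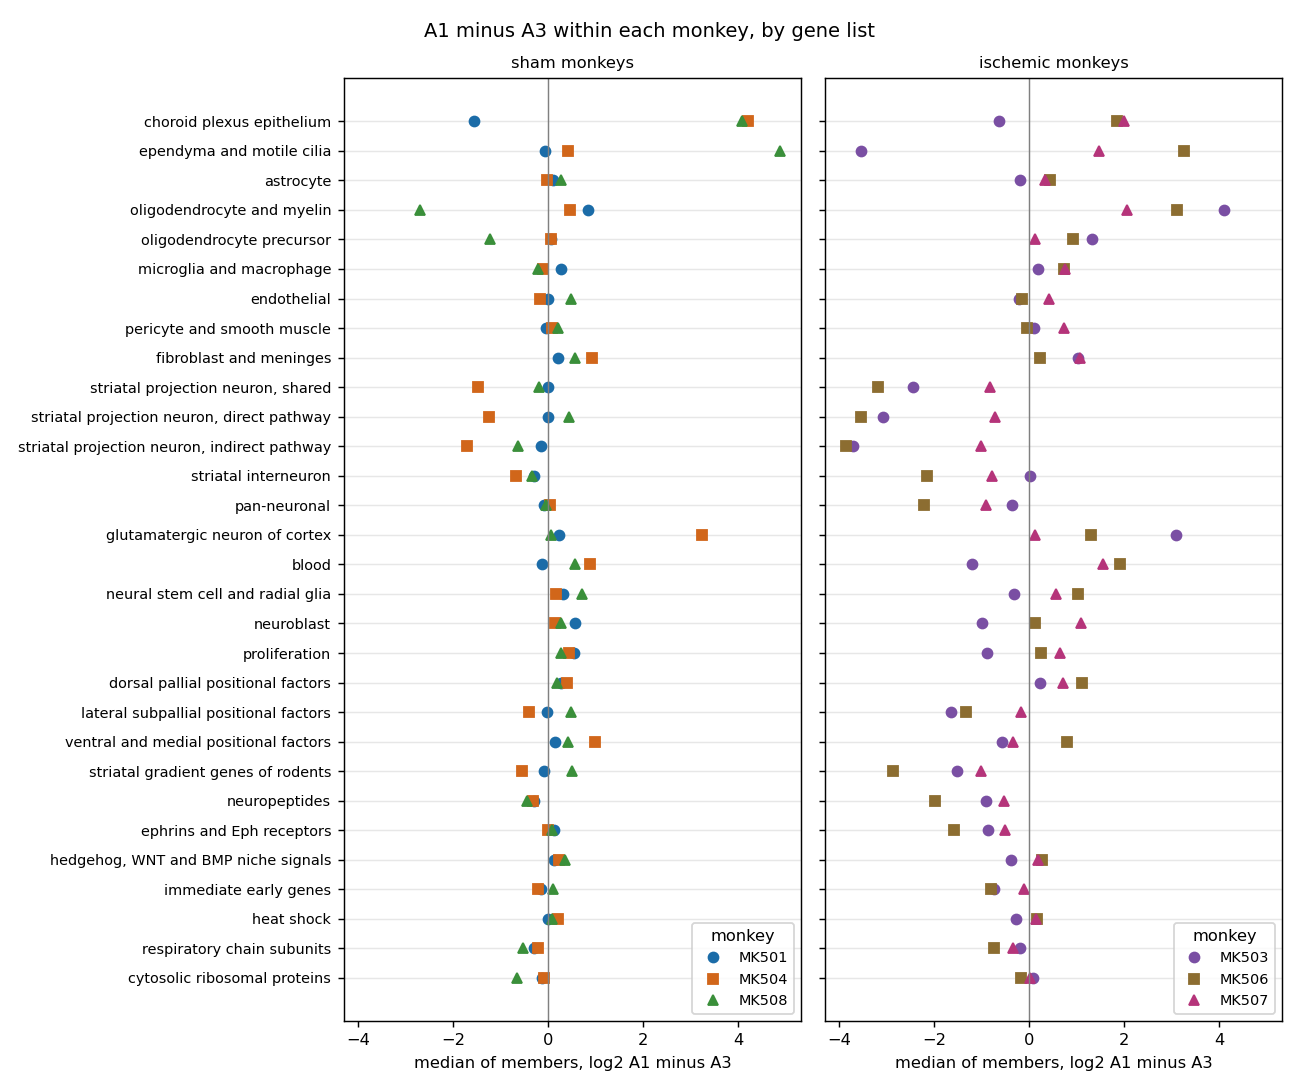
Median log2 difference, A1 over A3, of each gene list within each monkey, sham monkeys left and ischemic monkeys right, 1 symbol per monkey. In sham the symbols of choroid plexus (−1.57, 4.21 and 4.07) and oligodendrocytes (0.83, 0.46 and −2.70) lie on both sides of 0, and those of the respiratory chain (−0.30, −0.21 and −0.52) on 1 side.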

How the data were processed

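Total RNA of 18 SVZa tissue fragments was the input for libraries made with a TruSeq RNA kit, and the 9 sham libraries were analysed here. The authors mapped reads to the genome of Macaca mulatta with RhesusBase annotation and deposited raw counts per human RefSeq transcript, not normalized. The submitters' processing notes name CASAVA 1.8.2, FastQC 0.10.0, TopHat2 2.0.8 and bedtools 2.16.2. Whether counting used strand is not given in the sources used here, so reads of antisense or overlapping genes cannot be told apart. The table holds 29686 transcripts of 19747 symbols, and the transcript with the highest mean CPM was taken per symbol. The libraries of a monkey differed by more than sampling noise (chi-square over its degrees of freedom, 10.5 to 288), so none was taken as a copy.

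Counts were fitted in edgeR 4.0.16 (R 4.3.3; filterByExpr, TMM, robust quasi-likelihood F test) with the monkey as a block and the fragment as a term, which pairs fragments by the animal they share, with Benjamini-Hochberg adjustment over all genes tested. Within-monkey log2 values used a prior count of 2. DESeq2 1.42.0, limma 3.58.1 (voom), RLE size factors, library totals, other filters, no block, A1 and A3 only, all 18 libraries, all transcripts, and leaving out each monkey were alternatives. Leaving out the libraries that stood apart, and removing POLE2 and KLHDC1, were chosen after seeing the data. The fit was tested on simulated data.

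The lists and members were chosen with earlier results of these data known. Genes named are the 15 with the smallest p in each direction that ran one way in all 3 monkeys, list members at an unadjusted p under 0.05 or among the 4 highest of their list, and the 5 with the smallest p in the comparison of treatments. Other names, among them PTCH1, ZIC4 and those given only for not overlapping, were chosen after their values were seen. A few named by the rule are not reported here. The SE rests on the residual spread of the fit with 3 monkeys as blocks. At these depths (11526479 counts or more per library with 1 transcript per symbol) genes near 1 CPM still rest on few reads.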

Additional observations from a re-analysis of the deposited data

Results flagged for a closer look

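Among the named genes, 6 were such that every sham monkey differed between A1 and A3 in 1 direction and every ischemic monkey in the other. NEU4, IRS4, ZCCHC12, SLIT1 and GLI1 had been named for small p values in these sham libraries, and ELL2 for its small p in the interaction. The p values below reuse the values that chose the genes and are no independent support. The share of all genes with such opposite directions was not counted. The difference of the effects, sham minus ischemia, was tested in edgeR, and 0 of 17322 genes passed after adjustment (smallest adjusted p 0.1153). NEU4, a sialidase gene of oligodendrocyte precursors, had an interaction of −3.38 on the log2 scale (unadjusted p = 3.27e-05, adjusted p 0.1153). Its A1 minus A3 differences were −0.58, −1.11 and −2.02 in the sham monkeys MK501, MK504 and MK508, and 2.53, 2.14 and 1.44 in the ischemic monkeys MK503, MK506 and MK507. In the ischemic monkeys NEU4 had 7.61, 25.0 and 16.8 CPM in A1 and 1.25, 5.62 and 6.16 CPM in A3. ELL2, an elongation factor gene, had −2.28 (unadjusted p = 6.42e-05, adjusted p 0.1153), although its sham difference in MK501 was only −0.023.

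GLI1 had an interaction of 3.18 (unadjusted p = 0.00192, adjusted p 0.1153), with differences of 0.618, 0.747 and 1.78 in sham and −3.00, −2.86 and −0.926 in ischemia. IRS4 had 3.30 (unadjusted p = 0.00522, adjusted p 0.132), ZCCHC12 had 2.0 (unadjusted p = 0.00474, adjusted p 0.1289) and SLIT1 had 2.16 (unadjusted p = 0.00329, adjusted p 0.1204). The median of the ephrin and Eph receptor list was −0.03 by the sham fit. Within monkeys its medians were 0.113, 0.002 and 0.091 in sham and −0.868, −1.598 and −0.519 in ischemia, and this difference was not tested.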

How the results depend on the processing

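edgeR called 0 genes in each sham comparison under every alternative run in it and in limma-voom. DESeq2 gave 1 gene higher and 2 lower in A1 against A3, 25 in A1 against A2, 12 among the 3 fragments, 1009 for sham minus ischemia and 4374 in ischemia alone. The fit with no replicate block, set against the fit paired by monkey, called 0 genes in sham as before and 0 in ischemia, where the A1 and A3 libraries alone also gave 0. Leaving out single monkeys gave 0 to 627 genes in ischemia. The cause was not tested. Of the named genes, STMN1, at −0.15, was −0.79 without MK504, −0.87 without the block and 0.72 (unadjusted p = 0.0449) without MK508, and 3 genes passed in DESeq2 alone. Of the list medians 41 moved by more than the spread of their monkeys and 486 did not, and the oligodendrocyte median, −0.49, became 0.64 without MK508. Library totals moved the median of all genes to 0.17. Counting error matters for genes near 0. With 3 monkeys and this spread, the lack of a call does not show that fragments were alike.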

Other observations

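Some libraries held transcripts that their 2 neighbours from the same monkey lacked. These genes were chosen after their values were seen, and no test was run on them. In A1 of MK501 several liver-made plasma protein genes stood up together. HP, haptoglobin, had 39.0 CPM there, against 0.875 in A2 and 0.907 in A3 of the same animal, and APOA1, an apolipoprotein, had 13.7 CPM against 0.985 and 0.552. HPR, APOA2, HPX, ITIH1 and ITIH4 followed them. In A2 of MK501 the imprinted noncoding RNA H19 had 55.6 CPM, against 0.217 in A1 and 0.276 in A3, and the complement gene C7 had 258 CPM against 4.95 and 4.46. FOLR1, a folate receptor of choroid plexus, had 677 CPM there, while members of the SNORD115 small nucleolar RNA cluster, which neurons express, were low, as SNORD115-25 with 0.164 CPM against 4.08 and 3.55.

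In A3 of MK508 short noncoding RNAs of nuclear and mitochondrial RNA processing were high. RMRP had 37.1 CPM, against 2.24 in A1 and 2.22 in A2, and RPPH1 had 37.0 CPM against 1.92 and 2.28. The same library was nearly without LRRC71, at 0.136 CPM against 264 and 65.5, and without CAPSL, at 0.0907 CPM against 87.0 and 43.6. In A1 of MK508 the neighbouring TRIM genes TRIM15 and TRIM31 had 3.87 and 7.05 CPM, and TRIM15 had 0 counts in A2 and A3 of that monkey. In A1 of MK504 NEUROD6, a transcription factor of cortical excitatory neurons, had 18.9 CPM, against 1.06 in A2 and 0.124 in A3.

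The 22 genes at least 2-fold higher in A1 of all 3 monkeys included LIX1, CBLN4, GABRQ, MYBL2, MPPED1, SLC2A9, CYSLTR2, CTH, DLX1, FCN1, SLC17A4, PNMA5, HGF, CYP4F2, CYP4F3, MFAP2, TMIE, GLTPD2, GSTA1, GSTA2 and CDCA2. The CYP4F and GSTA pairs are near-identical copies that can share reads. The 7 at least 2-fold lower in A1 were SOHLH1, EPYC, CRISP2, SNTG2, CD177, CRISP3 and TMPRSS6. Of these 29 genes 0 passed in edgeR after adjustment, and LIX1 and SOHLH1 passed in DESeq2.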
